A study of Homo sapiens with 39 samples.

Results

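The 6 libraries described here came from C4-2B cells after 1 day of olaparib at 1 µM (3 libraries) or of the solvent DMSO (3 libraries), and were chosen by their titles, which name the drug, the dose, the replicate and the day. They were 6 of the 39 samples of the series. C4-2B is a castration-resistant prostate cancer cell line of the LNCaP lineage, and the series also held a panel of drug treatments of 5 days, not analysed here, and the rest of this time course. From the time course, olaparib at 5 µM on day 1 (3 libraries), olaparib at 1 µM on day 5 (3 libraries) and DMSO on day 5 (3 libraries) were used to place the day 1 response by dose and time. Cells were plated, treated on the day after, and their RNA was made into stranded libraries after capture of mRNA. No group carried a transgene or an edited gene, so the groups differed by agent, dose and day. The titles number the replicates 1 to 3 but do not say that they were separate cultures, so the p-values below measure the spread between these libraries, which may be technical.

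Olaparib blocks PARP1 and PARP2, enzymes that sense breaks in DNA and mark the site with chains of ADP-ribose, and it holds them on the DNA. Forks of replication that run into such lesions break, and the breaks are handed to homologous recombination, a pathway that includes BRCA1 and BRCA2. Broken DNA activates checkpoint kinases, and these stabilize p53, a transcription factor that raises the inhibitor of cyclin-dependent kinases CDKN1A, genes of cell death and its own antagonist MDM2. In prostate luminal cells androgens drive genes such as KLK3, which encodes prostate-specific antigen.

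The 6 libraries held between 35753966 and 42223465 estimated counts. Replicates of a group differed by more than read sampling, with a chi-square per degree of freedom over genes of 2.18 to 3.34, so no pair agreed within counting noise. Mitochondrial transcripts took 9.21% to 9.28% of the counts with DMSO and 9.70% to 10.2% with olaparib, and the 10 genes with the most counts took 9.12% to 9.19% and 9.53% to 9.97%. All 10 luminal markers were expressed, with a sum between 3800 and 3900 CPM (counts scaled to the library total) with DMSO and between 3700 and 3760 CPM with olaparib. Markers of other cell types had no more than 3 counts in any of the libraries for 2 of 3 basal, 2 of 4 neuroendocrine, 2 of 5 leukocyte, 3 of 4 endothelial, 3 of 6 fibroblast and 1 of 3 erythroid genes, among them KRT5, TP63, CHGA, CD3E, PECAM1, DCN, LUM and HBB with at most 1 count. Others were detected at low levels, with at most 27 counts for KRT14, 82 for SYP, 24 for LYZ, 28 for HBA1 and 101 for PDGFRB in any of the 6 libraries. The sums of the basal, neuroendocrine, leukocyte and erythroid markers were at most 0.687, 2.01, 0.623 and 0.671 CPM with DMSO and at most 0.493, 2.14, 0.716 and 0.730 CPM with olaparib. Summed endothelial markers lay between 10.1 and 11.3 CPM with DMSO and between 12.9 and 13.8 CPM with olaparib, nearly all of it VWF, and summed fibroblast markers between 13.7 and 14.5 and between 17.0 and 17.4 CPM, most of it COL1A1. The part of these shifts in the results was not tested.

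One day of olaparib at 1 µM shifted many genes by a little and a small group of genes by a lot. Of 18502 genes tested, 1166 were higher (6.30%) and 1762 were lower (9.52%) than with DMSO at an adjusted p under 0.05, which is 15.8% of the genes in all. Most shifts were small, since the median log2 fold change was 0.23 among the genes called higher and -0.12 among those called lower. A log2 fold change of at least 1 was reached by 110 genes upward and 8 downward, and one of at least 0.5 by 245 upward and 36 downward. None of the 8 large falls had a mean of 100 counts in either group, whereas 22 of the large rises did. The 12 genes with the largest rises at that depth were CEL, CDKN1A, FAXDC2, FAS, GDF15, PHLDA3, LIF, FRMPD2, SPATA18, BLNK, FDXR and PURPL. Among those with the largest falls were H2BC11, DHRS2, H2AC13, H2AC6, H1-5, H3C10, H4C15, SNHG26, IFRD1, H2BC12 and ZNF542P, and 7 of these 11 encode histones. Levels are CPM after TMM scaling, which assumes that most genes do not move, and each gene was tested with edgeR's quasi-likelihood test. The balance of directions rests on that scaling, because 39.8% of the calls were higher with TMM and 59.9% of 2667 calls were higher when libraries were scaled by their total count. Without DMSO replicate 1 the number of calls was 1932, of which 44.4% were higher.

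**Figure D1:**
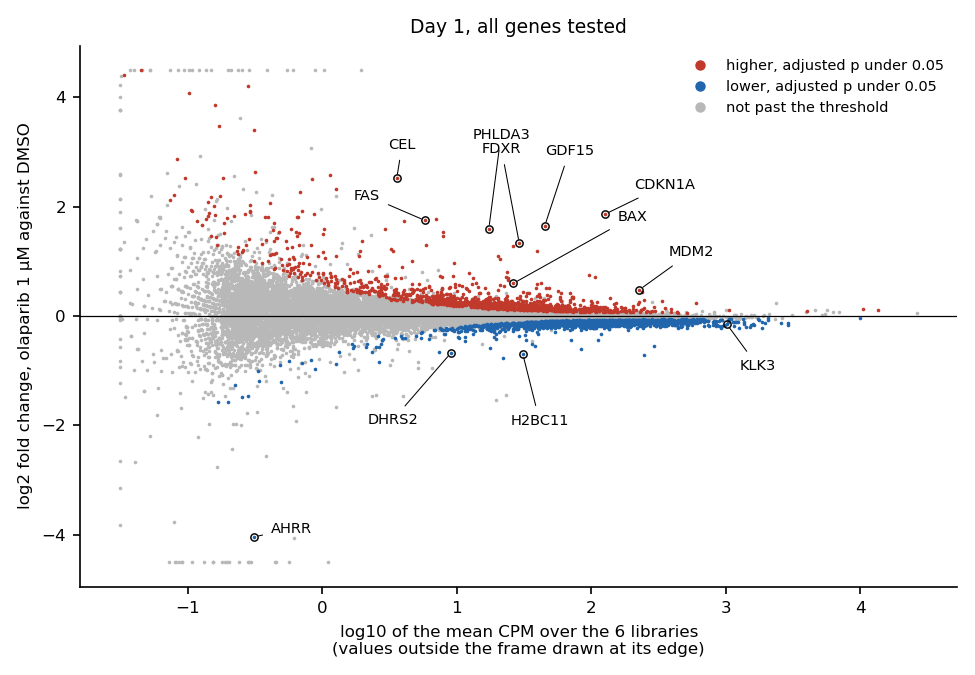
Log2 fold change of each of the 18502 genes tested (vertical axis) against the log10 of its mean CPM over the 6 libraries (horizontal axis), with red for the 1166 genes called higher, blue for the 1762 called lower and grey for the rest. Rises reach further from 0 than falls among genes with more than a few counts, and CDKN1A stands at 1.87 while KLK3 stands at -0.14.

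Targets of p53 had the highest median of the lists in the plot of list members. Of the 48 tested members of a list of known p53 targets, 40 were higher and none was lower, beside 6.30% and 9.52% of all genes tested. The median log2 fold change of the list was 0.53, against 0.00 over all genes, and all 48 estimates lay above 0. In 42 of the 48, the lowest olaparib library lay above the highest DMSO library, beside 14.3% of all genes. The number called higher was 40 to 42 under the other scalings, and 40 or 41 when any 1 library was left out.

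CDKN1A, which encodes the cell cycle inhibitor p21, stood at 55.8, 54.3 and 53.9 CPM in the DMSO libraries and at 196, 201 and 201 CPM in the olaparib libraries. The groups were far apart, and the rise was 3.65-fold (log2 fold change 1.87 ± 0.02 SE, edgeR adjusted p = 2.36e-36). FAS, the death receptor, lay at 2.84, 2.57 and 2.57 CPM with DMSO and at 9.52, 8.77 and 8.54 CPM with olaparib (log2 fold change 1.75 ± 0.08 SE, edgeR adjusted p = 6.25e-19). Every olaparib library was above every DMSO library for FAS too. GDF15, a secreted stress cytokine, was measured at 21.6, 20.1 and 23.7 CPM with DMSO and at 66.1, 68.3 and 70.8 CPM with olaparib (log2 fold change 1.65 ± 0.04 SE, edgeR adjusted p = 3.46e-20). PHLDA3, which restrains AKT at the membrane, went from 8.78, 8.28 and 8.73 CPM to 25.0, 26.2 and 27.0 CPM (log2 fold change 1.60 ± 0.05 SE, edgeR adjusted p = 4.19e-23). These 4 led the p53 list.

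MDM2, the ubiquitin ligase that degrades p53, showed a smaller rise on a higher level. Its DMSO libraries lay at 197, 185 and 189 CPM and its olaparib libraries at 265, 273 and 260 CPM, which did not overlap (log2 fold change 0.48 ± 0.03 SE, edgeR adjusted p = 4.07e-17). Among other p53 targets, FDXR, a mitochondrial ferredoxin reductase, rose by 1.34 on the log2 scale from a DMSO mean of 16.5 CPM. SPATA18, a gene of mitochondrial quality control, rose by 1.46 from 4.25 CPM. The long noncoding RNA PURPL, which is not on the list, rose by 1.30 from 3.43 CPM. The 8 list members that did not pass were TNFRSF10A, PERP, APAF1, EDA2R, PMAIP1, ABCA12, CMBL and SERTAD1, named because they were left over. Their log2 fold changes lay between 0.03 and 0.99, the last for EDA2R at a mean of 0.0764 CPM with DMSO.

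The genes of the largest rises outside the p53 list ranged from a digestive enzyme to a cytokine. CEL, a lipase that digests dietary fat esters, had the largest rise among genes averaging 100 or more counts, from 1.14, 1.11 and 0.936 CPM to 6.05, 6.17 and 6.10 CPM (log2 fold change 2.52 ± 0.11 SE, edgeR adjusted p = 4.74e-19). CEL has a near-identical pseudogene copy, CELP, which also rose (log2 fold change 2.52), so the split of reads between the pair is uncertain. LIF, a cytokine of the interleukin 6 family, stood at 1.68, 1.27 and 1.48 CPM with DMSO and at 4.26, 4.77 and 4.26 CPM with olaparib (log2 fold change 1.59 ± 0.12 SE). BLNK, an adaptor of B cell receptor signaling, went from 1.45, 1.11 and 0.728 CPM to 2.54, 3.06 and 2.92 CPM (log2 fold change 1.38 ± 0.15 SE). FAXDC2, a member of the fatty acid hydroxylase family, rose by 1.78 on the log2 scale, and FRMPD2, a scaffold with several copies in its genome segment, by 1.54. For each of these 5 genes the libraries of the groups did not overlap.

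**Figure D2:**
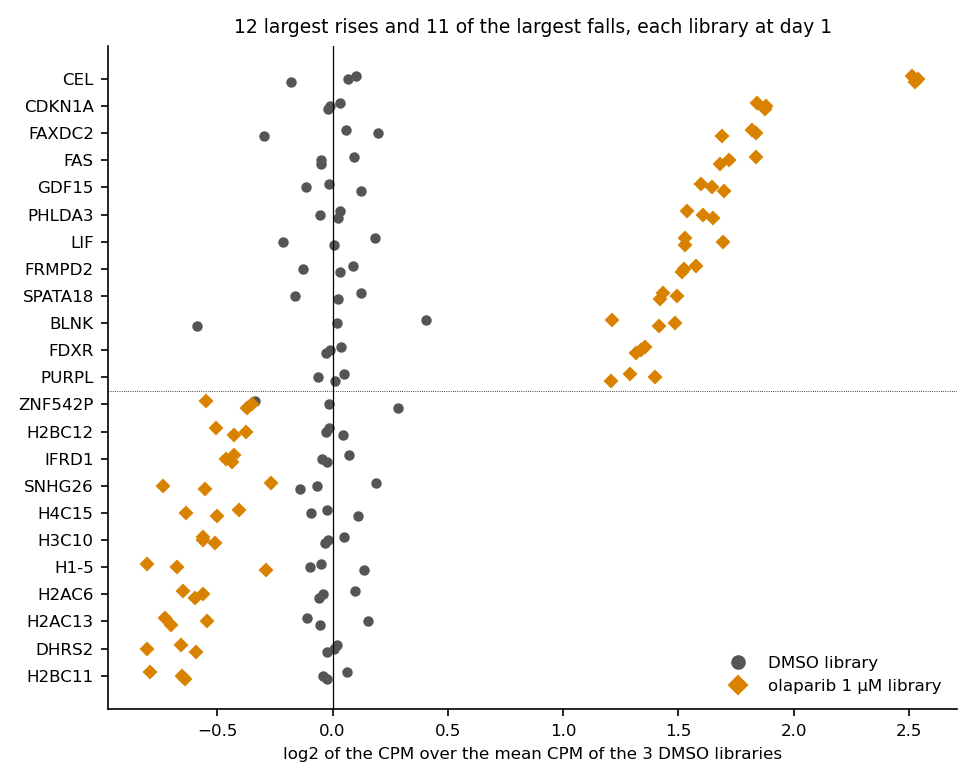
Level of the 12 genes with the largest rises (upper rows) and of 11 genes among the largest falls (lower rows) in each of the 6 libraries, as the log2 of the CPM over the mean CPM of the 3 DMSO libraries, with circles for DMSO and diamonds for olaparib at 1 µM. For each of the 12 rises all diamonds lie right of all circles, with CEL furthest right at a log2 fold change of 2.52, and for each of the 11 falls all diamonds lie left of all circles, with ZNF542P the closest.

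The promoters of the risen genes were searched for the p53 motif, since these genes moved together. The windows ran from 250 bases before to 50 bases after each gene's start and came from RefSeq on GRCh38.p14. The motif was taken as a pair of the p53 half-site, a run of 10 bases, with up to 13 bases between them, on either strand and with no mismatch. It was found in 8 of 27305 promoters (0.0293%), and in 5 of the 12071 that belong to a tested gene. Of those 5, 3 belonged to genes with a log2 fold change of at least 1, among the 70 such genes with a window. They were PURPL, PTCHD4 and LNCTAM34A, the last 2 of them named after their values were seen. No pair was found in the 32 windows of risen p53 list members. A half-site, with or without a second, was found in 22.9% of those 70 windows, in 12.5% of the 32 windows of risen p53 list members, in 7.39% of the 880 windows of all genes called higher, in 5.36% of the windows of all genes tested and in 4.03% of those of the genes called lower. Some of the 70 genes, PTCHD4 among them, had at most 3 counts in every DMSO library and passed the filter through other groups, and over the 60 windows of the others 2 held a pair and 18.3% a half-site. Many p53 sites lie outside such windows, and a match is only a run of letters. The starts are RefSeq's, and those of PURPL, FAXDC2, BLNK and FDXR lie inside the gene as GENCODE gives it. The stretches before the RefSeq start that hold a pair are shown first, and then those of 3 of the largest rises that hold a half-site, with the motif in capitals.
PURPL (chr5:27472145-27472204, plus strand): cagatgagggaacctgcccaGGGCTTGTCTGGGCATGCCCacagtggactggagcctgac
PTCHD4 (chr6:48111198-48111237, minus strand): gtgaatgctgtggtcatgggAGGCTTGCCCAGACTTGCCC
LNCTAM34A (chr1:9182124-9182183, plus strand): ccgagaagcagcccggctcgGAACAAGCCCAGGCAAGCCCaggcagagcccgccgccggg
FAXDC2 (chr5:154850712-154850761, minus strand): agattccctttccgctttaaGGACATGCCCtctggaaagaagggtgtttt
BLNK (chr10:96271570-96271600, minus strand): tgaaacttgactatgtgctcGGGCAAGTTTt
FDXR (chr17:74872995-74873025, minus strand): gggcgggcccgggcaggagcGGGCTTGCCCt

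LNCTAM34A, a long noncoding RNA, rose by 1.19 on the log2 scale from a mean of 1.17 CPM to 2.67 CPM (edgeR adjusted p = 1.13e-06). PTCHD4, a patched-related gene, had 2, 3 and 2 counts with DMSO and 7, 8 and 9 counts with olaparib, which is near the floor of 3 counts, so it is given as counts only.

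Some p53 targets of cell death and DNA repair rose, and others did not pass. In the BCL2 family, 3 of 14 tested members were higher (21.4%, beside 6.30% of all genes) and 1 was lower (7.14%, beside 9.52%), and the death promoter PMAIP1 was among those that did not pass. BBC3, the death promoter PUMA, went from 2.19, 2.03 and 1.92 CPM to 4.49, 4.89 and 4.60 CPM (log2 fold change 1.19 ± 0.10 SE, edgeR adjusted p = 6.27e-11). BAX, which opens the mitochondrial outer membrane, rose by 0.60 and BIK, another promoter of death, by 0.26, while BCL2L2, a survival protein, fell by 0.11 on the log2 scale. BBC3 and BAX kept their call under every alternative run, whereas BIK and BCL2L2 lost it under 8 and 6 of them.

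In the repair lists the calls went both ways. In excision, mismatch and end joining repair, 3 of 37 genes were higher (8.11%, beside 6.30% of all genes) and 9 were lower (24.3%, beside 9.52%). The rises were DDB2 and XPC, which recognize bulky lesions for nucleotide excision repair and are p53 targets, and NEIL1, a glycosylase. DDB2 stood at 24.9, 23.4 and 24.6 CPM with DMSO and at 56.1, 54.1 and 55.1 CPM with olaparib (log2 fold change 1.18 ± 0.03 SE, edgeR adjusted p = 7.53e-25). XPC rose by 0.43 and NEIL1 by 0.51. UNG, the uracil glycosylase, lay at 115, 112 and 112 CPM with DMSO and lower, at 95.5, 99.3 and 95.7 CPM, with olaparib (log2 fold change -0.22 ± 0.03 SE).

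Of 41 genes of homologous recombination and the Fanconi anemia pathway, 2 were higher (4.88%, beside 6.30% of all genes) and 5 lower (12.2%, beside 9.52%), and the median log2 fold change was -0.01. BRCA1 lay between 102 and 106 CPM with DMSO and between 105 and 109 CPM with olaparib, and BRCA2 between 102 and 103 CPM and between 100 and 108 CPM. The groups overlapped for both, with log2 fold changes of 0.05 (edgeR adjusted p = 0.260) and 0.01 (edgeR adjusted p = 0.913). The helicase gene BRIP1 (0.14) and FANCG (0.13) were higher, while FANCM (-0.15) and XRCC2 (-0.11) were lower. BRIP1 lost its call under 4 of 15 alternatives, and FANCM and XRCC2 under 2 each. The split was 5 higher and 3 lower with total count scaling. The number lower was 1 without DMSO replicate 1 and 3, 3 and 2 without olaparib replicates 1, 2 and 3.

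Among 21 tested PARP family and ADP-ribose genes, 2 were higher and 2 lower, which is 9.52% each way, beside 6.30% and 9.52% of all genes. PARP1, the main target of the drug, lay at 684, 661 and 660 CPM with DMSO and at 634, 647 and 633 CPM with olaparib, and PARP2 at 48.2, 46.1 and 45.9 CPM and at 42.2, 42.7 and 44.1 CPM. Both falls were small, with log2 fold changes of -0.07 (edgeR adjusted p = 0.00585) and -0.12 (edgeR adjusted p = 0.0152), and neither passed with total count scaling or without DMSO replicate 1. PARP14, an interferon-responsive member, was the largest change in this list, from 7.93, 8.73 and 8.58 CPM to 11.7, 11.5 and 11.3 CPM (log2 fold change 0.45 ± 0.06 SE, edgeR adjusted p = 2.23e-06). PARP4 rose by 0.09. Of 23 checkpoint genes, 1 was higher (4.35%) and 4 were lower (17.4%): the phosphatase CDC25A (-0.18), the fork protector TIPIN (-0.17), the kinase CHEK1 (-0.13) and the histone variant H2AX (-0.10), which lost its call under 6 of 15 alternatives. With total count scaling 3 checkpoint genes were higher and 3 lower.

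Histone genes of the replication-dependent clusters, which package new DNA in S phase, had the lowest median of the lists in the plot of list members. Of 44 tested, 17 were lower (38.6%, beside 9.52% of all genes) and none was higher, 12 estimates lay above 0, and the median log2 fold change was -0.22. In 19 of the 44 all olaparib libraries lay below all DMSO libraries, beside 16.5% of all genes. The number called lower was 17 or 18 under the other scalings and 13 to 16 with single libraries left out. H2BC11 stood at 40.0, 37.1 and 37.6 CPM with DMSO and at 22.1, 24.3 and 24.5 CPM with olaparib (log2 fold change -0.69 ± 0.06 SE, edgeR adjusted p = 2.28e-09). H2AC6 went from 108, 98.0 and 96.9 CPM to 64.4, 68.3 and 66.8 CPM (log2 fold change -0.60 ± 0.03 SE, edgeR adjusted p = 2.21e-16). H3C10 went from 46.5, 44.4 and 44.0 CPM to 30.5, 30.5 and 31.5 CPM (log2 fold change -0.54 ± 0.03 SE). The groups did not overlap for any of these 3. H2AC13 (-0.66) and H2BC12 (-0.44) also fell, and H1-5 (-0.57) and H4C15 (-0.51) lost their call under 3 and 2 of the alternatives.

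Most cluster histone transcripts end without a poly(A) tail and the libraries were made by mRNA capture, so these levels cover the captured share only. Copies of a histone type are near-identical, and the split of reads between them is uncertain. The octamer ATTTGCAT, read on both strands, lies in many promoters of H2A and H2B genes. It was found in 6 of the 17 windows of the fallen cluster histones (35.3%), all 6 among the 11 H2A and H2B genes. The share was 1.43% in the windows of all genes tested and 1.80% in all windows. The windows of H2AC6 and H2BC4, on opposite strands, hold the same octamer (chr6:26124022-26124069), which was counted for both. Cluster histones that did not fall were not counted as a group, so a tie between the octamer and the falls was not tested. Of the fallen genes, 3 are shown with the octamer in capitals on the gene's own strand.
H2BC11 (chr6:27132815-27132862, minus strand): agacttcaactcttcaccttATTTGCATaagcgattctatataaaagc
H2BC12 (chr6:27146877-27146924, minus strand): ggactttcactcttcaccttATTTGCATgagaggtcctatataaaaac
H2AC6 (chr6:26124022-26124069, plus strand): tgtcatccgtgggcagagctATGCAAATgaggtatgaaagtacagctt

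The other large falls were single genes of varied roles. DHRS2, a short-chain dehydrogenase, stood at 11.2, 11.1 and 10.9 CPM with DMSO and at 7.03, 6.34 and 7.34 CPM with olaparib (log2 fold change -0.68 ± 0.08 SE, edgeR adjusted p = 1.81e-08). IFRD1, a transcriptional coregulator, lay at 85.4, 78.7 and 80.0 CPM and then at 60.5, 59.1 and 60.0 CPM (log2 fold change -0.44 ± 0.03 SE). The noncoding RNA SNHG26 (-0.51) and the pseudogene ZNF542P (-0.42) lost their call under 3 and 8 of the alternatives. AHRR, the repressor of the aryl hydrocarbon receptor, had 21, 30 and 18 counts with DMSO and 3, 1 and 0 counts with olaparib, at least 7.98-fold lower when each olaparib library is set at 3 counts. At 5 µM on day 1 AHRR had a log2 fold change of 0.06 that did not pass the threshold (edgeR adjusted p = 0.948). At 1 µM it was the only called gene of the 11 tested in a list of aryl hydrocarbon and xenobiotic response genes (9.09% lower, beside 9.52% of all genes). DESeq2 gave AHRR no adjusted p.

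**Figure D3:**
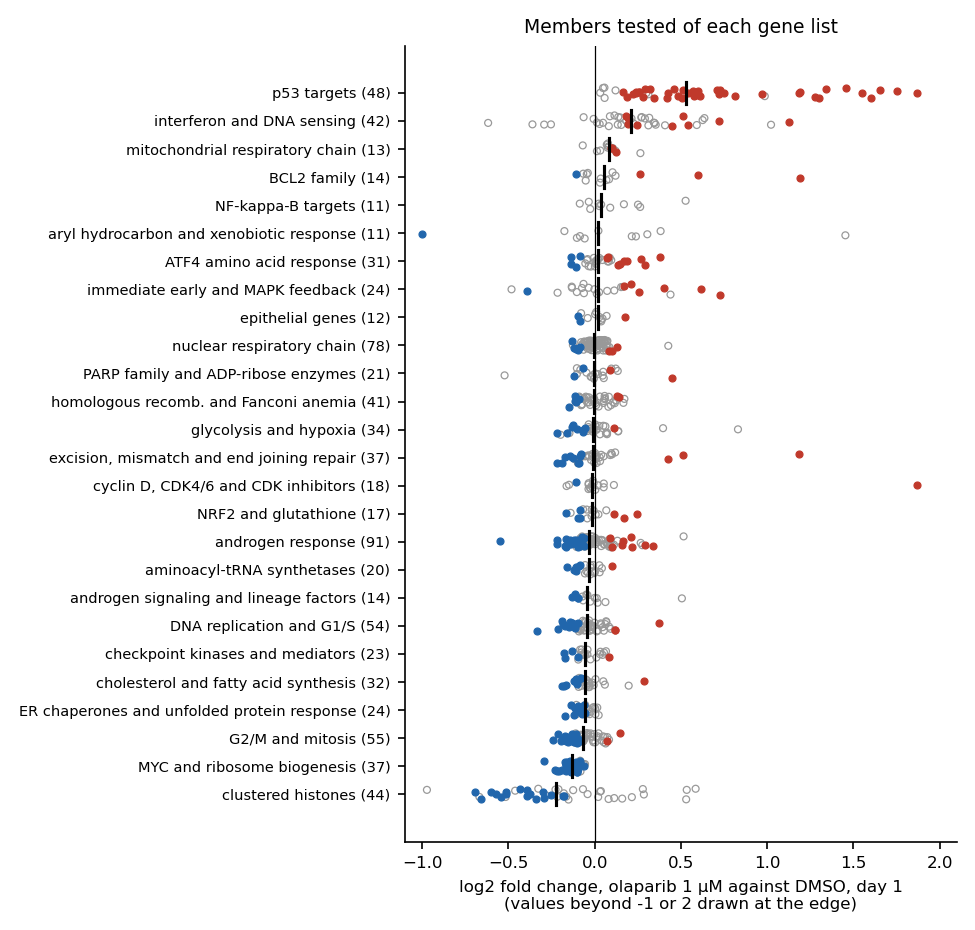
Log2 fold change on day 1 (horizontal axis) of every tested member of each gene list of 10 or more, with the number tested in brackets, filled red for members called higher, filled blue for those called lower, open grey for the rest, and a black bar at the median. The p53 list stands to the right of 0 with a median of 0.53, and the histone and ribosome biogenesis lists stand to the left with medians of -0.22 and -0.13.

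Genes of growth fell together by small amounts. Of 37 genes of MYC activity and ribosome biogenesis, 32 were lower and none was higher, beside 9.52% of all genes for falls, and all 37 estimates lay below 0 with a median of -0.13. The count was 27 to 32 with single libraries left out and 28 with total count scaling. NPM1, the nucleolar protein nucleophosmin, went from 2046, 1973 and 2003 CPM to 1721, 1736 and 1714 CPM (log2 fold change -0.22 ± 0.01 SE, edgeR adjusted p = 4.21e-14). NCL, nucleolin, went from 1671, 1615 and 1607 CPM to 1402, 1428 and 1414 CPM (log2 fold change -0.21 ± 0.02 SE, edgeR adjusted p = 8.24e-13). Every olaparib library lay below every DMSO library for both. LYAR, a nucleolar regulator of growth, had the largest change of the list (-0.29), followed by the small subunit processome gene UTP20 (-0.23).

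The endoplasmic reticulum, lipid and glycolysis lists also held small falls, with 45.8%, 31.2% and 23.5% of their members lower, beside 9.52% of all genes. Of 24 chaperone and unfolded protein response genes, 11 were lower and none was higher, and the number lower was 6 with total count scaling, 6 without DMSO replicate 1 and 7 without olaparib replicate 3. HSPA5, the chaperone BiP, stood at 931, 895 and 883 CPM with DMSO and at 790, 810 and 806 CPM with olaparib (log2 fold change -0.17 ± 0.02 SE, edgeR adjusted p = 8.94e-09), followed by MANF (-0.14), HYOU1 (-0.12) and HSP90B1 (-0.12). Of 32 cholesterol and fatty acid synthesis genes, 10 were lower, among them SCD (-0.19), FASN (-0.18) and INSIG1 (-0.17), and HSD17B7 was higher (0.28). Of 34 glycolysis and hypoxia genes, 8 were lower and 1 higher, which became 5 lower and 4 higher with total count scaling, 5 lower and 3 higher without DMSO replicate 3, and 5 lower without olaparib replicate 1. LDHA, lactate dehydrogenase, fell from 1009, 986 and 990 CPM to 850, 857 and 855 CPM (log2 fold change -0.22 ± 0.02 SE, edgeR adjusted p = 6.08e-12), and HK2 (-0.16), EGLN1 (-0.13) and SLC2A1 (-0.13) also fell. Of 20 aminoacyl-tRNA synthetases, 6 were lower, led by both phenylalanine subunits, FARSB (-0.16) and FARSA (-0.12), with RARS1 at -0.11, and 1 was higher.

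Some replication and mitosis genes were lower on day 1, by small amounts, and a few were higher. Of 54 genes of DNA replication and the G1/S step, 15 were lower (27.8%, beside 9.52% of all genes) and 3 higher (5.56%, beside 6.30%). With total count scaling 14 of them were lower and 6 higher, and with DESeq2 16 were lower and 5 higher. MCM6, a subunit of the replicative helicase, went from 136, 127 and 130 CPM to 105, 104 and 103 CPM (log2 fold change -0.33 ± 0.03 SE, edgeR adjusted p = 4.66e-11). MCM5 (-0.21) and MCM4 (-0.19) also fell, while LIG1, the ligase that seals nicks during replication, rose from 25.1, 26.4 and 25.4 CPM to 32.5, 33.6 and 33.5 CPM (log2 fold change 0.37 ± 0.04 SE, edgeR adjusted p = 3.37e-08). Of 55 G2/M and mitosis genes, 21 were lower (38.2%) and 2 higher (3.64%), with a median of -0.07. CDC20, the activator of the anaphase-promoting complex, went from 147, 148 and 148 CPM to 126, 124 and 123 CPM (log2 fold change -0.24 ± 0.03 SE, edgeR adjusted p = 2.06e-08). CENPE (-0.21), AURKA (-0.20) and KIF18A (-0.18) also fell. With total count scaling 15 mitosis genes were lower and 4 higher. Of 18 cyclin D, CDK4/6 and CDK inhibitor genes, CDKN1A rose and E2F3 (-0.11) fell, and no other passed. E2F3 lost its call under 3 of 15 alternatives, and with total count scaling 2 genes of this list were higher and none lower.

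Genes of interferon and stress responses were mixed, with more rises than falls. Of 42 interferon and DNA sensing genes, 9 were higher (21.4%, beside 6.30% of all genes) and none was lower, with a median of 0.21. TAP1, the peptide transporter of antigen presentation, rose from 6.93, 7.43 and 7.25 CPM to 10.6, 10.8 and 9.48 CPM (log2 fold change 0.51 ± 0.07 SE, edgeR adjusted p = 4.53e-07), and OAS1 (1.13), IFI44 (0.72) and IFI35 (0.54) were at most 2.36 CPM in any of the 6 libraries. None of 11 NF-kappa-B targets passed in edgeR's test. Of 24 immediate early and MAPK feedback genes, 6 were higher (25.0%) and 1 lower (4.17%), and KLF4 (0.72), IER5 (0.61) and DUSP4 (0.40) led, while the RAS pathway inhibitor SPRY4 fell (-0.39). Of 31 genes of the ATF4 amino acid response, 9 were higher (29.0%) and 4 lower (12.9%, beside 9.52% of all genes), and 5 were higher without DMSO replicate 2. DDIT4, an inhibitor of mTORC1, rose from 41.7, 40.8 and 40.3 CPM to 50.3, 51.8 and 57.4 CPM (log2 fold change 0.38 ± 0.04 SE, edgeR adjusted p = 1.72e-07). NUPR1 rose by 0.29, CHAC1 by 0.27 and ADM2 by 0.18. SPRY4, IFI35 and CHAC1 each lost their call under 4 of 15 alternatives, and IFI44 under 2.

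Of 17 NRF2 and glutathione genes, HMOX1 (0.25), FTL (0.17) and FTH1 (0.11) were the 3 that rose (17.6%, beside 6.30% of all genes) and GCLM (-0.16) was among the 4 that fell (23.5%, beside 9.52%), of which 2 were left without DMSO replicate 1 and 1 without olaparib replicate 3. Of 13 mitochondrially encoded respiratory chain genes, 3 were higher (23.1%, beside 6.30% of all genes), MT-ND4 (0.13), MT-CO1 (0.10) and MT-ND5 (0.10), in the libraries whose mitochondrial share was also higher, and the part of that share was not tested. The number higher was 7 with DESeq2, 6 with total count scaling, 2 with RLE scaling and 1 without DMSO replicate 2 or olaparib replicate 2 or 3, and MT-CO1 and MT-ND5 lost their call under 8 and 3 of 15 alternatives. Of 78 nuclear respiratory chain genes, 3 were higher (3.85%), with NDUFA11 at 0.13, and 5 were lower (6.41%), with UQCRFS1 at -0.13, NDUFB10 at -0.12 and ATP5F1C at -0.11. The nuclear split was 11 higher and 4 lower with total count scaling, and 5 and 1 were higher without olaparib replicates 2 and 3. MT1X was the one of 3 metallothioneins that passed (-0.11), and it lost its call under 8 of 15 alternatives, among them every fit with 1 library left out. Of 12 epithelial genes, CLDN3 rose (0.17) and GRHL2 (-0.10) and KRT18 (-0.08) fell, and neither fall passed without olaparib replicate 1. Of 7 mesenchymal genes, 4 rose (2 without DMSO replicate 3 or olaparib replicate 2): FN1 (0.30), VIM (0.15), ITGA5 (0.14) and TGFBI (1.93), the last at no more than 0.535 CPM in any of the 6 libraries.

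Genes of androgen signaling moved by small amounts at this dose and day, and more of them fell than rose. KLK3 stood at 1024, 1074 and 1101 CPM with DMSO and at 957, 948 and 989 CPM with olaparib, a fall of 0.14 on the log2 scale (edgeR adjusted p = 4.22e-05). TMPRSS2 (0.07, edgeR adjusted p = 0.0815) did not pass, and FKBP5, at 601, 581 and 593 CPM and then at 567, 578 and 555 CPM, was lower by a log2 fold change of -0.06 (edgeR adjusted p = 0.0115) and lost its call under 5 of 15 alternatives. Of 91 genes of the androgen response tested, 8 were higher (8.79%, beside 6.30% of all genes) and 25 lower (27.5%, beside 9.52%), with a median of -0.03. The split moved with scaling, to 13 higher and 14 lower with total counts. The number lower was 16 without DMSO replicate 1 or olaparib replicate 3, and the number higher was 3 without DMSO replicate 2 and 5 without olaparib replicate 1. Members with large changes were MERTK (0.34), a receptor kinase, NUPR1, and CHRNA2 (-0.22), a subunit of the nicotinic receptor. In a list of androgen signaling and lineage factors, 4 of 14 were lower, NCOA1 (-0.13), FOXA1 (-0.11), GRHL2 and GATA2 (-0.10), the last of which lost its call under 5 of 15 alternatives, and 2 were lower without olaparib replicate 1.

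The dose of 5 µM on day 1 gave 8333 calls, 45.0% of the genes, against the same DMSO libraries. Because the DMSO libraries are shared, the doses were compared directly, olaparib at 5 µM against 1 µM, where 5324 genes (28.8%) differed. Of all genes tested in this comparison, 12.8% were higher and 15.9% lower at 5 µM than at 1 µM. This comparison shares the 1 µM libraries with the first. Of the 1166 genes higher at 1 µM, 717 were higher still at 5 µM and 31 were lower than at 1 µM, and of the 1762 lower genes, 1224 were lower still and 25 higher than at 1 µM. All 40 risen p53 targets were higher still, and 46 of all 48 tested were higher at 5 µM than at 1 µM (95.8%, beside 12.8% of all genes). The median of the p53 list was 1.27 at 5 µM, beside 0.53 at 1 µM. CDKN1A was higher at 5 µM than at 1 µM by a log2 fold change of 1.85, GDF15 by 2.06, FAS by 1.60 and MDM2 by 0.65 (edgeR adjusted p of 1.77e-37, 9.02e-25, 7.71e-23 and 6.76e-22).

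The mitosis genes were lower at the higher dose almost throughout. All 21 that fell at 1 µM were lower still at 5 µM, and 54 of the 55 tested were lower at 5 µM than at 1 µM, beside 15.9% of all genes. Their median was -0.78 at 5 µM, beside -0.07 at 1 µM. AURKA had a log2 fold change of -0.20 at 1 µM and of -1.61 at 5 µM, and CDC20 of -0.24 and -1.60. Replication genes did not follow this order, since 20 of 54 were higher and 6 lower at 5 µM than at 1 µM, beside 12.8% and 15.9% of all genes, and MCM5 had a log2 fold change of -0.21 at 1 µM and of -0.11 at 5 µM. Of the 17 fallen histones, 12 were lower still at 5 µM, and H2BC11 had a log2 fold change of -1.19 there. Of all 44 tested histones, 14 were lower at 5 µM than at 1 µM (31.8%, beside 15.9% of all genes). LIG1 (0.37 and 1.01) and PARP14 (0.45 and 1.01) also rose further.

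**Figure D4:**
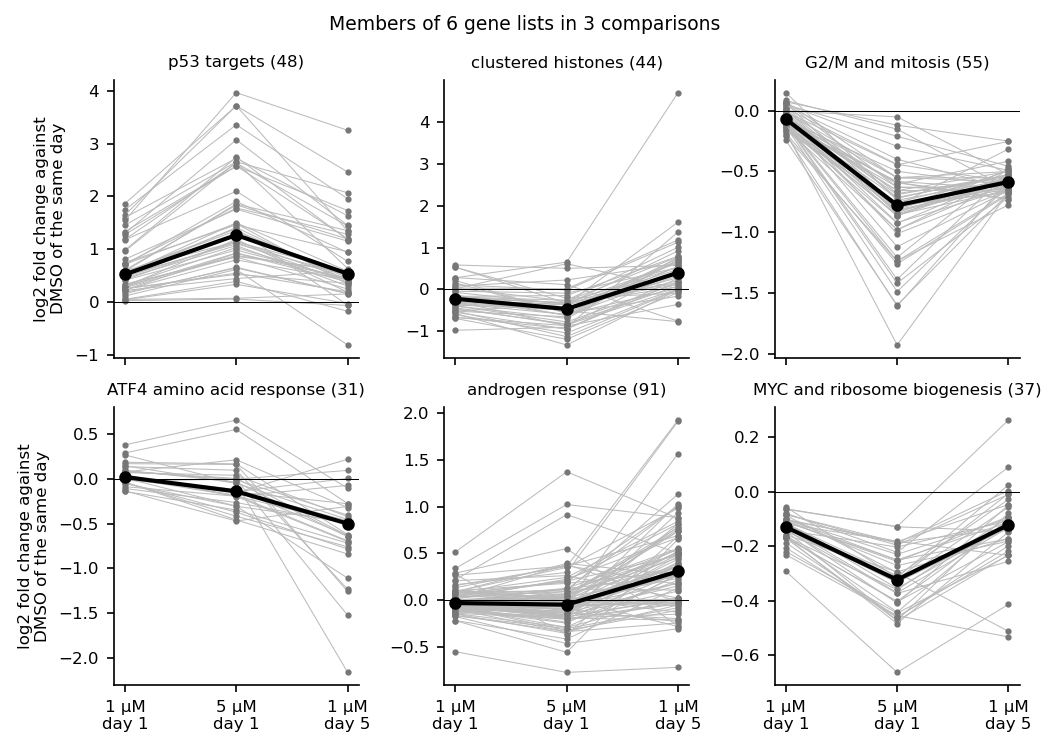
Log2 fold change against DMSO of the same day (vertical axis, one scale per panel) of every tested member of 6 gene lists at 1 µM on day 1, 5 µM on day 1 and 1 µM on day 5, with grey lines joining the values of a gene and black points at the median. The 2 day 1 comparisons share their DMSO libraries. The mitosis medians are -0.07, -0.78 and -0.59, and the histone medians are -0.22, -0.46 and 0.40.

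Olaparib at 1 µM for 5 days was compared with its own DMSO libraries and gave 8566 calls, 46.3% of the genes. Of all genes tested, 23.4% were higher and 22.9% lower on day 5. Of the 1166 genes higher on day 1, 728 were also higher on day 5 (62.4% of the day 1 list and 16.8% of the 4324 on the day 5 list) and 135 were lower. Of the 1762 lower on day 1, 1119 were also lower on day 5 (63.5% of the day 1 list and 26.4% of the 4242 on the day 5 list) and 161 were higher. The difference of the 1 µM effect between the days was tested as an interaction, and 5510 genes (29.8%) passed. Of the 40 p53 targets risen on day 1, 39 were higher on day 5 as well, and of all 48 tested 41 were (85.4%, beside 23.4% of all genes). For the 40, the interaction was positive for 14, negative for 7 and not called for 19. CDKN1A had a log2 fold change of 1.87 on day 1 and 2.46 on day 5, a difference of 0.60 ± 0.03 SE (edgeR adjusted p = 4.26e-16). GDF15 had 1.65 on day 1 and 1.35 on day 5.

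Lists of proliferation, histones, amino acid stress, androgen signaling and the mitochondrial genome differed between the days. The interaction was positive for 12 of 13 mitochondrially encoded genes, beside 15.6% of all genes, with a median difference of 0.34. On day 5 mitochondrial transcripts took 8.24% to 8.38% of the counts with DMSO and 10.6% or more with olaparib at 1 µM, and the part of that share was not tested. The interaction was negative for all 55 mitosis genes, for 52 of 54 replication genes and for 32 of 41 recombination genes, beside 14.2% of all genes. BRCA1 had a log2 fold change of 0.05 on day 1 and -0.50 on day 5, BRCA2 of 0.01 and -0.57, and BRIP1 of 0.14 and -0.57. For the histones, none of the 17 fallen on day 1 was lower on day 5, 9 were higher, and the interaction was positive for 15. Of all 44 tested histones, 19 were higher on day 5 (43.2%, beside 23.4% of all genes) and 2 were lower. The interaction was positive for 24 of the 44 (54.5%, beside 15.6% of all genes). Of the ATF4 genes, all 9 that rose on day 1 were lower on day 5, where CHAC1 had a log2 fold change of -2.16 and ADM2 of -0.62. Most of that list was lower on day 5, with 28 of all 31 tested (90.3%, beside 22.9% of all genes). For the androgen response, the interaction was positive for 62 of 91 members and negative for 7, and KLK3 went from -0.14 on day 1 to 0.26 on day 5, FKBP5 from -0.06 to 0.49 and TMPRSS2 from 0.07 to 1.01. The ribosome biogenesis list had medians of -0.13 on day 1 and -0.12 on day 5, with 4 members called in each direction for the difference.

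The genes called on day 1 differed from all tested genes in level, and genes of more counts are easier to call. The median DMSO level was 94.6 CPM for the genes called lower, 16.4 CPM for those called higher and 11.7 CPM for all tested. Protein-coding genes made up 95.2% of those called lower and 90.0% of those called higher, and 74.3% of all tested. Long noncoding RNAs were 2.95%, 7.98% and 19.15% of these sets, by the GENCODE types of the genes. Among the protein-coding genes the median length of the gene on the genome was 33.8 kb for those called lower, 28.8 kb for those called higher and 33.3 kb for all tested.

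The positions of the genes with the largest changes, from GENCODE on GRCh38, place the histones in the clusters of chromosomes 6 and 1. CDKN1A lies at chr6:36676460-36687337, CEL at chr9:133061981-133071861, FAS at chr10:88953813-89029605, GDF15 at chr19:18374731-18389176 and PHLDA3 at chr1:201464278-201469237. FDXR lies at chr17:74862497-74873031, LIF at chr22:30240453-30246759 and the noncoding PURPL at chr5:27217714-27497871. H2BC11 lies at chr6:27125897-27132795, H2AC6 at chr6:26124145-26139116, H3C10 at chr6:27810051-27811300 and H4C15 at chr1:149854045-149861159.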

How the data were processed

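RNA from 6 C4-2B libraries, and from 12 more of the same time course, was measured by stranded mRNA sequencing. The authors trimmed reads with Trim Galore, aligned them to GRCh38 with STAR, quantified genes with Salmon on a GENCODE annotation, and deposited the estimated counts of each gene, which are whole numbers and not normalized. Their versions are not given in the labels used here. All 63187 genes were read, 62030 IDs were paired with a symbol from an earlier GENCODE release, and 18502 passed edgeR's filter by group. The members, lists and tests were chosen with earlier results of these data known.

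Counts were scaled by TMM and fitted with edgeR 4.0.16 in R 4.3.3 (robust quasi-likelihood, 18 libraries, 6 groups of 3, no covariates, 12 residual degrees of freedom), with Benjamini-Hochberg adjustment over all genes tested and a threshold of 0.05. Named genes were the 12 largest rises and 12 largest falls that averaged 100 or more counts in the higher group, genes named whatever their values (CDKN1A, MDM2, KLK3, TMPRSS2, FKBP5, PARP1, PARP2, BRCA1 and BRCA2), and up to 4 called members of each list with the largest change. Some genes that this rule names are not reported here. A gene with at most 3 counts in all libraries of a group was given as a limit at 3 counts in each library. The scripts were tested on simulated data. Alternatives were RLE and total count scaling, other filters, DESeq2 1.42.0, fits of fewer groups, stricter thresholds, a replicate block and leaving out each library. Whether replicate numbers pair the libraries was left unsettled, and the main fit did not use them as pairs. With 35753966 or more counts per library, depth limits genes of low counts most, and limits at 3 counts cover counting error only. PARP8, TOP3A and ATM were not analysed here. Promoter sequences came from RefSeq. Python 3.11.15 and matplotlib 3.10.9 drew the figures.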

Additional observations from a re-analysis of the deposited data

Results flagged for a closer look

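The effect of olaparib at 1 µM differed between day 5 and day 1, by edgeR's interaction test, in 5510 genes, and the named genes among them are given here as the log2 fold change on day 5 minus that on day 1. All of the differences below had an adjusted p under 0.05, and no cause was tested. A positive value means a higher log2 fold change on day 5 and a negative one a lower.

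Among the p53 targets and other strong rises, the difference was 0.60 for CDKN1A, -0.30 for GDF15, 0.68 for LIF, 0.62 for SPATA18, 0.87 for PURPL, -0.11 for MDM2, -0.41 for DDB2 and 0.35 for BIK. Among the histone genes it was 0.62 for H2BC11, 0.93 for H2AC13, 0.61 for H2AC6, 0.73 for H3C10, 0.51 for H4C15 and 0.44 for H2BC12. Among the other strong falls it was 0.65 for DHRS2, -0.48 for IFRD1 and 0.57 for ZNF542P. AHRR had a difference of 4.93, which rests on libraries of at most 3 counts with olaparib on day 1. Of the cell death genes, BCL2L2 had -0.20.

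The genes of androgen signaling had differences above 0 with one exception, 0.41 for KLK3, 0.94 for TMPRSS2, 0.55 for FKBP5, 0.54 for MERTK, 0.87 for CHRNA2 and 0.26 for GRHL2, the exception being -0.57 for NUPR1. For genes of PARP and recombination the values were -0.082 for PARP1, -0.30 for PARP2, -0.49 for PARP14, 0.30 for PARP4, -0.56 for BRCA1, -0.58 for BRCA2, -0.33 for FANCM, -0.71 for BRIP1, -0.51 for FANCG and -0.41 for XRCC2. For checkpoint and replication genes they were -0.14 for CDC25A, -0.26 for TIPIN, -0.42 for CHEK1, -0.42 for H2AX, -0.46 for LIG1, -0.31 for MCM5, -0.21 for MCM4 and 0.13 for E2F3. For mitosis genes they were -0.44 for CDC20, -0.47 for CENPE, -0.38 for AURKA and -0.50 for KIF18A.

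For genes of stress, interferon and MAPK feedback the differences were -0.48 for DDIT4, -2.43 for CHAC1, -0.81 for ADM2, -0.83 for IFI35 and 0.16 for DUSP4. For chaperones, ribosome biogenesis, lipid synthesis and glycolysis they were 0.27 for HSPA5, 0.074 for HSP90B1, -0.30 for UTP20, -0.43 for HSD17B7, 0.10 for SCD, -0.30 for INSIG1, 0.27 for LDHA and 0.25 for SLC2A1. For redox and metal genes they were 0.66 for FTL, -0.24 for GCLM, -0.10 for FTH1 and -0.23 for MT1X. For respiratory chain genes they were 0.11 for NDUFB10, 0.34 for MT-ND4, 0.16 for MT-CO1 and 0.54 for MT-ND5. For epithelial and mesenchymal genes they were -0.26 for CLDN3, 0.12 for KRT18, 0.61 for FN1, 0.80 for VIM and -0.39 for ITGA5.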

How the results depend on the processing

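The 5 comparisons kept a count within 1.5 times of the reported one under other scalings, other filters, DESeq2 and fits of fewer groups. A log2 fold change of at least 1 left 118 genes at 1 µM on day 1, 659 at 5 µM, 738 on day 5, 287 for the dose step and 433 for the day difference, and an adjusted p under 0.01 left 1651 at 1 µM on day 1. With single libraries left out, the counts were 1932 to 2711 at 1 µM on day 1, 7592 to 7852 at 5 µM, 7737 to 7929 on day 5, 4443 to 4830 for the dose step and 5026 to 5324 for the day difference. The lowest of these, 1932, was without DMSO replicate 1. Among the named genes, BRCA2 alone changed sign, to -0.027 without olaparib replicate 1, where it did not pass the threshold, and its highest value with a library left out was 0.027.

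The replicate block gave 2869 calls and a block within each day 2754, beside 2928. The deviations of same-numbered libraries from their group means correlated at 0.10, -0.015 and 0.085. DMSO replicates 1 and 3 each correlated most with the olaparib library of their own number. DMSO replicate 2 correlated more with olaparib replicate 3 (0.037) than with its own number. These values leave the pairing unsettled, and the main fit did not use the numbers as pairs. The median of all genes was 0.03 on the log2 scale with total count scaling, against 0.00 with TMM. Genes of low counts are limited most by depth: 18 genes called higher and 1 called lower had at most 3 counts in every library of a group.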
